A study of Homo sapiens with 24 samples.

Results

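Raloxifene, given for 1 h to T47D cells in complete medium, was compared with vehicle across all peaks of open chromatin measured by ATAC-seq, an assay that lets a transposase (Tn5) cut and tag accessible DNA. The comparison set against each other the libraries titled raloxifene or DMSO in complete medium, 8 of the 24 in the series, while all 24 entered the fit and shared its filter and its estimate of the spread. It covered 189403 peaks on hg38, of which 156745 had enough counts to be tested. T47D is an established line of estrogen-receptor-positive, luminal breast cancer cells from human, and all libraries came from this single line. The 4 raloxifene libraries received 100 nM raloxifene and the 4 vehicle libraries received DMSO at 0.1% by volume, each for 1 h after 1 day in complete medium, RPMI with unstripped serum, so no estrogen was added and none was removed. The vehicle libraries of replicates 3 and 4 are DMSO by title and description, while their treatment label names fulvestrant. They were grouped by title. The contrast within replicates 1 and 2 leaves them out, although they still entered its filter, scaling and estimate of the spread. The main results are also given without both. Groups used beside these had 4 libraries each: 100 nM tamoxifen or 100 nM fulvestrant for 1 h after 1 day in complete medium, and 1 nM estradiol or 0.1% DMSO (starved vehicle) for 1 h after 3 days in medium free of phenol red, with charcoal-stripped serum. Nothing in the labels shows that replicates are separate cultures, and p-values therefore measure only the spread between these libraries.

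The estrogen receptor is a ligand-activated transcription factor that binds estrogen response elements, inverted repeats of a short arm, mostly at enhancers far from gene starts. Estradiol-bound receptor recruits coactivators, and chromatin at many bound sites becomes more accessible. Raloxifene, a benzothiophene, binds the same pocket and holds the receptor in a shape that favours corepressors. It belongs to the selective estrogen receptor modulators, which block estrogen action in breast but act like estrogen in some other tissues such as bone.

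Totals per library were 7772169 to 10218691 counts with raloxifene and 7117770 to 10225935 with vehicle. Peaks without a count made up 1.57% to 2.33% of all with raloxifene and 1.37% to 2.17% with vehicle. Chi-square divided by its degrees of freedom was 1.74 to 2.22 over the 12 pairs of libraries within these groups, so none of these pairs matched within sampling noise. At the gene starts of luminal markers, of which 4 of 8 had a listed start and all 4 had a peak, summed accessibility was 259 to 303 CPM (counts on a scale shared by all libraries) with raloxifene and 259 to 292 CPM with vehicle. For basal or mesenchymal markers, with 6 of 8 starts listed, it was 70.0 to 76.5 CPM with raloxifene and 63.2 to 73.2 CPM with vehicle, and the starts of KRT5 and TP63 had no peak. Most of this sum came from ACTA2 alone, with a mean of 53.2 CPM with raloxifene and 47.9 CPM with vehicle. The most abundant peak of ACTA2 lies 0.036 kb from a start of FAS. For blood markers, with 3 of 8 starts listed and no peak at that of PTPRC, it was 7.97 to 8.74 CPM with raloxifene and 6.81 to 12.6 CPM with vehicle.

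Sequence is shown only for gene starts, within 1 kb of which 11.2% of tested peaks lay. The start windows of 4 genes serve as examples and do not stand for peaks elsewhere. They are the TGIF2 start nearest to the peak that passed the test, and 3 starts of estrogen-induced genes, namely the lowest (PGR) and highest (ELOVL2) log2 fold change in the list and one with several copies of the arm (RARA). Each holds 250 bases before and 50 after the start in RefSeq on GRCh38.p14, written 5′ to 3′ on the gene's strand, and capitals mark GGTCA or its reverse TGACC, one arm of the estrogen response element.
TGIF2 start (chr20:36573347-36573646, plus strand): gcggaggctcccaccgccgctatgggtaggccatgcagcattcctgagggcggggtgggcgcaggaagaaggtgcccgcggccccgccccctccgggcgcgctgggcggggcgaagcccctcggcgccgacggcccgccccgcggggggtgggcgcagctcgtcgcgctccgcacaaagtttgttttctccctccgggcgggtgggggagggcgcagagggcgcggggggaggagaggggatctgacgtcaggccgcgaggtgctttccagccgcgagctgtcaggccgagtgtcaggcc
PGR start (chr11:101129764-101130063, minus strand): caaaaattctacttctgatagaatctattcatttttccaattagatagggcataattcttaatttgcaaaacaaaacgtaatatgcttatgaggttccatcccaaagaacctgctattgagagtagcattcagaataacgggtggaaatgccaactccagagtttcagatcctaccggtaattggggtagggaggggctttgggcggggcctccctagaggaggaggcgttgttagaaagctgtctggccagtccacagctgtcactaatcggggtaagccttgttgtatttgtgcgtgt
RARA start (chr17:40308930-40309229, plus strand): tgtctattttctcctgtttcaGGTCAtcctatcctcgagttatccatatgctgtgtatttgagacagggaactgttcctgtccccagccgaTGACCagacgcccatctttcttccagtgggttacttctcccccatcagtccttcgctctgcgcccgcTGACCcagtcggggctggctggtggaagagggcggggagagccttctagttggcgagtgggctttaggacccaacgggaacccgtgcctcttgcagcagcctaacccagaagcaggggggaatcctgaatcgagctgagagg
ELOVL2 start (chr6:11044256-11044555, minus strand): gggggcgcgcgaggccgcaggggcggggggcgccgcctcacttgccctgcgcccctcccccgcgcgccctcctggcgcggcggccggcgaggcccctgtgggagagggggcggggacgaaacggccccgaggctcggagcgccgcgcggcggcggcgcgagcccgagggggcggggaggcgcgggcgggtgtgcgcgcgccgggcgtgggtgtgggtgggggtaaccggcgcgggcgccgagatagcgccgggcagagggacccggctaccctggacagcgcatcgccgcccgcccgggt

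The full element, GGTCA and its reverse TGACC facing each other with 3 bases of any kind between them, reads the same on the opposite strand and occurred in 0.0572% of 34943 start windows. The arm GGTCA, searched on both strands and contained in the full element, occurred in 37.4% of them. Of 19 start windows with a tested peak, from 17 estrogen-induced genes, 11 held the arm and 0 held the full element. In the windows printed, the RARA start has 3 arms, while the TGIF2, PGR and ELOVL2 starts have none. The peaks on these 19 windows had log2 fold changes (raloxifene over vehicle) of -0.156 to 0.376 with a median of 0.031, and 0 passed the test. The peak on the PGR start averaged 36.3 CPM with raloxifene and 40.2 CPM with vehicle (-0.16, SE 0.106). The peak on the ELOVL2 start averaged 5.93 CPM with raloxifene and 4.63 CPM with vehicle (0.38, SE 0.215), and the peak on the RARA start shown averaged 13.0 CPM with raloxifene and 13.5 CPM with vehicle (-0.09, SE 0.142).

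After 1 h of raloxifene, 1 peak was more accessible than with vehicle and 0 were less accessible. The peak that rose is 0.000638% of those tested (edgeR quasi-likelihood test, adjusted p under 0.05 over all tested peaks). It lies inside TGIF2, which encodes a homeobox repressor of TGF-beta-responsive genes, at chromosome 20, 36587377 to 36587616, 13.9 kb from the TGIF2 start printed above. At an unadjusted p under 0.05 there were 5971 peaks (3.81% of those tested), 2597 higher and 3374 lower with raloxifene. DESeq2 called 0 peaks (adjusted p = 0.565 for the TGIF2 peak), and so did edgeR with its older estimate of dispersion (0.554).

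The TGIF2 peak had 16.7, 20.8, 17.6 and 15 CPM in raloxifene replicates 1 to 4, against 10.1, 10.1, 9.78 and 9.05 CPM in vehicle replicates 1 to 4. Every raloxifene library lay above every vehicle library, and the raloxifene values were the more spread out of the groups. The mean was 17.5 ± 2.43 CPM with raloxifene and 9.75 ± 0.495 CPM with vehicle (SD, n = 4 each), a log2 fold change of 0.85 (SE 0.150, 95% interval 0.55 to 1.14, edgeR adjusted p = 0.041). Within replicates 1 and 2 the log2 fold change was 0.89 (SE 0.189), and within replicates 3 and 4 it was 0.79 (SE 0.204). The test of the difference between these values gave an unadjusted p of 0.731 in edgeR. The call was lost when 7 of the 8 libraries were each left out (edgeR adjusted p 0.175 to 0.821, all but raloxifene replicate 4, without which it was 0.0348). Without the 2 vehicle libraries of conflicting label the adjusted p was 0.995, and over all these settings the log2 fold change stayed between 0.75 and 0.91.

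**Figure D1:**
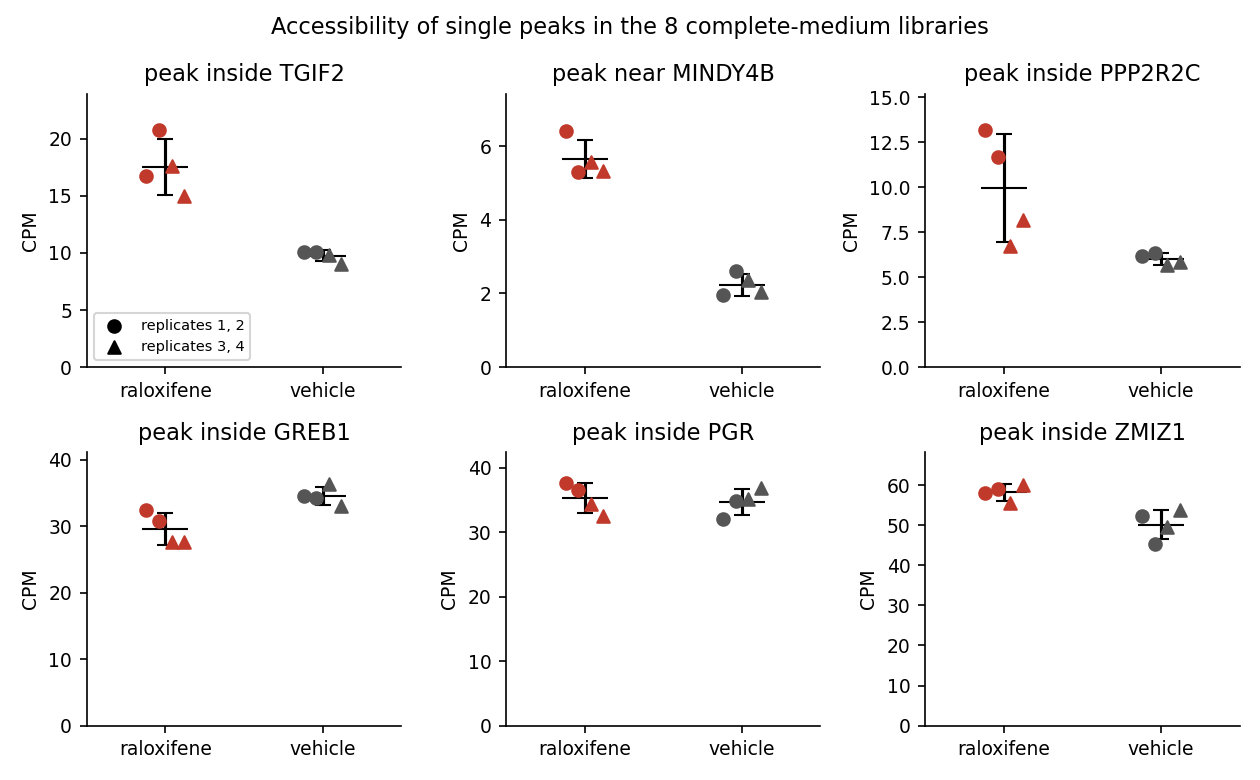
Accessibility in CPM (vertical axes) of 6 peaks in the raloxifene libraries (left) and vehicle libraries (right), with circles for replicates 1 and 2, triangles for replicates 3 and 4, and bars for the mean and SD (n = 4). At TGIF2 the raloxifene libraries run from 15 to 20.8 CPM, all above the vehicle libraries at 9.05 to 10.1 CPM, while at PGR the groups overlap.

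The same peak was among those that estradiol opened in hormone-starved T47D cells. It had 11.3, 8.1, 11.4 and 8.61 CPM after 1 h of 1 nM estradiol, against 1.96, 1.24, 2.0 and 2.91 CPM with starved vehicle (log2 fold change 2.22, SE 0.244). All 4 estradiol libraries lay above all 4 starved vehicle libraries and close to the vehicle libraries in complete medium, while the raloxifene libraries stood above them all.

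Around the TGIF2 peak, no neighbour passed the test. The other tested peaks within 50 kb numbered 15, of which 11 had a log2 fold change above 0 and 4 below, with a median of 0.02 and a range of -0.178 to 0.411. The nearest, 1.72 kb away and also inside TGIF2, averaged 9.43 ± 1.07 CPM with raloxifene and 7.16 ± 0.918 CPM with vehicle (SD, n = 4 each) and had the upper end of that range (SE 0.176, edgeR unadjusted p = 0.0224). The peak on the TGIF2 start averaged 11.2 ± 2.54 CPM with raloxifene and 10.2 ± 0.99 CPM with vehicle (0.13, SE 0.161).

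**Figure D2:**
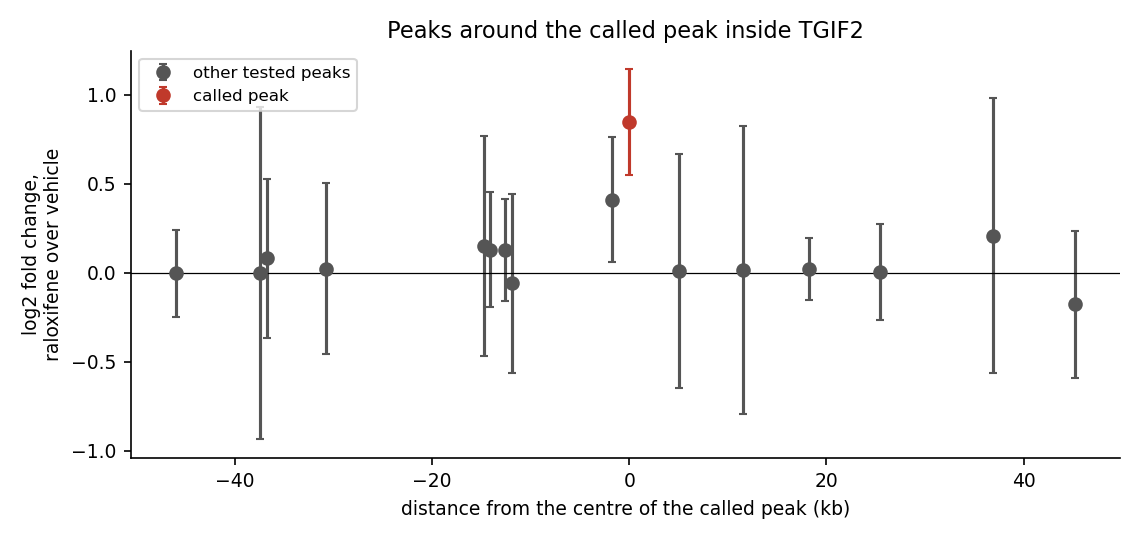
Log2 fold change of raloxifene over vehicle (vertical axis) with its 95% interval for each tested peak, by distance in kb from the peak inside TGIF2 that passed the test (horizontal axis). That peak stands at 0.85, and the other 15 peaks lie between -0.178 and 0.411.

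The other peaks with the smallest p among rises did not pass the test. Of the 10 such peaks above the median abundance, TGIF2 included, 8 had raloxifene libraries that did not overlap the vehicle libraries. Such separation upward was seen in 1.39% of all tested peaks, and these 10 were picked on their p, so nothing is read from that count. All 10 were above 0 in both sets of replicates, which the same choice favours, so nothing is read from that either. Estradiol had raised 6 of the 10 in starved cells, a contrast of other libraries in which 0.813% of all tested peaks were called higher. Of the 78372 peaks above the median abundance, from which the 10 were taken, it had raised 994. Of the 10, 4 lay inside a gene and 0 within 1 kb of a listed gene start.

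Second in rank was a peak 25.7 kb from MINDY4B (chromosome 3, 150844557 to 150844788). It had 6.41, 5.31, 5.58 and 5.32 CPM with raloxifene, against 1.95, 2.6, 2.37 and 2.04 CPM with vehicle, with no overlap between the groups. Its log2 fold change was 1.34 (SE 0.269, edgeR adjusted p = 0.289), nearly the same in replicates 1 and 2 (1.38) and in replicates 3 and 4 (1.29). It passed the test when only the 8 raloxifene and vehicle libraries were fitted (edgeR adjusted p = 0.045), with the replicate number as a block (0.0341) and with the replicate set as a term (0.0359). In starved cells it averaged 7.67 ± 2.24 CPM with estradiol and 0.934 ± 0.284 CPM with vehicle (SD, n = 4 each).

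A peak inside PPP2R2C, which encodes a regulatory subunit of protein phosphatase 2A (chromosome 4, 6415380 to 6415676), had 13.2, 11.7, 6.75 and 8.19 CPM with raloxifene, against 6.16, 6.37, 5.66 and 5.84 CPM with vehicle. The raloxifene libraries were all higher, but those of replicates 1 and 2 stood well above those of replicates 3 and 4. The log2 fold change was 0.76 over all 8 libraries (SE 0.190, edgeR adjusted p = 1), 1.00 in replicates 1 and 2 and 0.37 in replicates 3 and 4 (unadjusted p of the difference 0.075).

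At a peak 0.314 kb from WDR45B, whose protein binds phosphoinositides during autophagy (chromosome 17, 82613985 to 82614511), values were 32.0, 29.0, 24 and 27.6 CPM with raloxifene and 24.1, 17.4, 17.7 and 18.1 CPM with vehicle. Raloxifene replicate 3 and vehicle replicate 1 met, and the log2 fold change was 0.54 in replicates 1 and 2 and 0.52 in replicates 3 and 4. Estradiol had raised this peak by 1.52 on the log2 scale. Other rises of the 10 lay near or inside GPR26, CHST8, CDIN1, CSH1 and SPATA31C2, with log2 fold changes between 0.91 and 1.06 and edgeR adjusted p of 1.

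Among falls, the 10 peaks above the median abundance with the smallest p had log2 fold changes of -1.14 to -0.59 and edgeR adjusted p of 1. In 7 of them every raloxifene library lay below every vehicle library, a separation seen in 1.35% of all tested peaks. These 10 were also picked on their p, so nothing is read from that count. A peak 13.2 kb from TRPC6, which encodes a calcium-permeable channel (chromosome 11, 101438236 to 101438470), had 9.21, 7.85, 10.7 and 9.14 CPM with raloxifene, against 14.5, 14.2, 13.4 and 13.4 CPM with vehicle. The groups did not overlap, and the log2 fold change was -0.59 (SE 0.176), -0.74 in replicates 1 and 2 and -0.42 in replicates 3 and 4. Estradiol had raised this peak by 2.91 on the log2 scale.

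A peak 13 kb from SC5D, which encodes a desaturase of cholesterol synthesis (chromosome 11, 121326204 to 121326556), had 6.41, 6.86, 5.12 and 3.55 CPM with raloxifene, against 7.68, 6.76, 9.98 and 10.2 CPM with vehicle. The estimates of the sets lay apart, with overlapping groups and -0.13 in replicates 1 and 2 but no overlap and -1.20 in replicates 3 and 4. The unadjusted p of the difference was 0.00417 in edgeR, and it did not pass after adjustment. Replicates 3 and 4 are the set with the conflicting vehicle labels. Without those vehicle libraries the log2 fold change was -0.37, against -0.63 with them. A peak 3.06 kb from SLC2A1, the gene of a main glucose transporter (chromosome 1, 42961807 to 42962047), had 3.93, 3.1, 1.86 and 1.23 CPM with raloxifene, against 5.19, 4.81, 5.35 and 4.09 CPM with vehicle (-0.90, SE 0.258). Its log2 fold change was -0.51 in replicates 1 and 2 and -1.61 in replicates 3 and 4. The unadjusted p of that difference was 0.0384 in edgeR, and it did not pass after adjustment either. Other falls of the 10 lay inside PDSS2, MAP3K13, GPRIN2 and MCEMP1, 44.2 kb from ZNF678 and 499 kb from BPNT2, the nearest gene there. Estradiol had raised 3 of the 10 falls in starved cells, among them those near TRPC6 and SC5D. It had raised 0.813% of all tested peaks, and 994 of the 78372 above the median abundance, from which the 10 were taken.

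The 1274 peaks that estradiol opened in starved cells were then followed. They were chosen by a contrast of starved libraries, which do not enter the raloxifene contrast, although both contrasts come from the same fit. Raloxifene left their median close to that of all peaks. The median log2 fold change of these peaks was 0.01, and 47.3% of them were below 0, beside -0.0002 and 50.0% over all tested peaks. The middle 90% of single values ran from -0.431 to 0.478. In replicates 1 and 2 the median was 0.05 with 41.9% below 0, and in replicates 3 and 4 it was -0.02 with 52.8% below 0. Without both vehicle libraries of conflicting label it was -0.01. Of these peaks 1 passed the test, the one inside TGIF2. At an unadjusted p under 0.05, 52 were higher (4.08%, beside 1.66% of all tested peaks) and 33 lower (2.59%, beside 2.15%).

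As a share of each library's scaled counts, the estradiol-raised peaks held 1.65%, 1.64%, 1.56% and 1.53% in raloxifene replicates 1 to 4, against 1.64%, 1.61%, 1.57% and 1.56% in vehicle replicates 1 to 4. The groups overlapped almost entirely, and in both groups replicates 1 and 2 stood above replicates 3 and 4. The mean was 1.59 ± 0.0592% with raloxifene and 1.59 ± 0.037% with vehicle (SD, n = 4 each). In starved cells the share was 1.4% to 1.56% with estradiol and 0.698% to 0.729% with vehicle, so both complete-medium groups stood near the estradiol level. The 35 peaks that estradiol closed (0.0223% of those tested) had a median log2 fold change of -0.07 with raloxifene, and 0 of them passed the test.

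**Figure D3:**
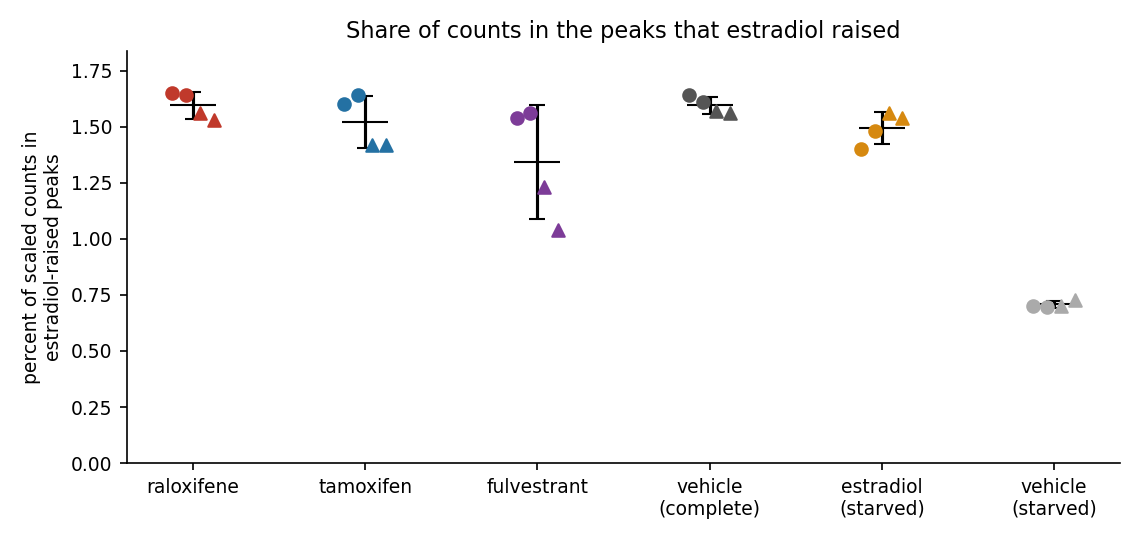
Percent of scaled counts in the 1274 estradiol-raised peaks (vertical axis) for each of the 24 libraries by group, with circles for replicates 1 and 2, triangles for replicates 3 and 4, and bars for mean and SD (n = 4). Raloxifene libraries at 1.53% to 1.65% overlap the complete-medium vehicle libraries at 1.56% to 1.64%, and starved vehicle libraries lie at 0.698% to 0.729%.

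The estrogen-induced gene list held 30 genes with 749 tested peaks within 50 kb. None of these peaks passed the test, 7 were higher (0.935%, beside 1.66% of all tested peaks) and 14 lower (1.87%, beside 2.15%) at an unadjusted p under 0.05, and the median log2 fold change was -0.03, with 45.4% above 0. For each gene the peak with the smallest p for estradiol was followed, and 21 of these 30 peaks had been raised by estradiol. They were picked on that same p, so nothing is read from that count, and 0.813% of all tested peaks were raised. With raloxifene 17 of the 30 were above 0 and 13 below, with a median of 0.01, and 14 changed sign between the sets of replicates.

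Inside GREB1, an early estrogen target whose protein acts as a receptor coactivator, that peak (chromosome 2, 11531048 to 11531281) had 32.4, 30.8, 27.6 and 27.6 CPM with raloxifene, against 34.5, 34.2, 36.3 and 33.1 CPM with vehicle. All raloxifene libraries lay below all vehicle libraries by a narrow margin. The log2 fold change was -0.22 (SE 0.118, edgeR unadjusted p = 0.0641, adjusted p = 1), -0.12 in replicates 1 and 2 and -0.34 in replicates 3 and 4.

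Inside PGR, which encodes the progesterone receptor, the peak (chromosome 11, 101034171 to 101034404) had 37.6, 36.6, 34.4 and 32.5 CPM with raloxifene, against 32.0, 34.8, 35.1 and 36.8 CPM with vehicle. The groups overlapped throughout (0.03, SE 0.113, 95% interval -0.192 to 0.259). For TFF1, a secreted trefoil peptide and a classical estrogen target, the peak lies 10 kb from the gene and inside another. It averaged 7.46 ± 1.5 CPM with raloxifene and 7.56 ± 1.1 CPM with vehicle (SD, n = 4 each; 0.01, SE 0.189). The extremes among the 30 followed peaks were low in counts. One inside NRIP1, which encodes a corepressor of nuclear receptors, averaged 0.825 ± 0.167 CPM with raloxifene and 0.246 ± 0.188 CPM with vehicle, with no overlap (SD, n = 4 each; log2 fold change 1.75, SE 0.672, edgeR adjusted p = 1). One 1.39 kb from the chemokine gene CXCL12 averaged 0.566 ± 0.269 CPM with raloxifene and 1.24 ± 0.218 CPM with vehicle, with overlap (-1.14, SE 0.492, edgeR adjusted p = 1).

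Luminal identity genes, 18 in number, had 494 tested peaks, 0 past the test and a median of 0.002. The peak taken for ESR1, the gene of the receptor itself, lies 40.4 kb from it and inside another gene. It averaged 16.3 ± 2.04 CPM with raloxifene and 15.2 ± 2.7 CPM with vehicle (0.08, SE 0.143). That near KRT8, a luminal keratin, averaged 44.0 ± 2.94 CPM with raloxifene and 44.2 ± 3.88 CPM with vehicle (-0.007, SE 0.107). Among 12 receptor coregulators with 244 peaks, 0 passed, and the abundant peak 29.4 kb from the corepressor gene NCOR1 was the one apart, at 43.8 ± 2.3 CPM with raloxifene and 35.9 ± 3.62 CPM with vehicle (SD, n = 4 each). Its libraries did not overlap (0.28, SE 0.103, edgeR unadjusted p = 0.00824, adjusted p = 1). It lies 0.047 kb from a start of ZSWIM7.

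The other lists also held no peak past the test. Estrogen-repressed genes, glucocorticoid and progestin targets, aryl hydrocarbon receptor targets, immediate early genes, cell cycle genes, sterol synthesis genes, unfolded protein response genes and housekeeping genes had 0 called peaks each. So did the marker lists of blood and of basal or mesenchymal cells. Over all 13 lists the medians ran from -0.0257 to 0.0405. The most abundant peak near SREBF2, which encodes a master activator of sterol synthesis, averaged 39.4 ± 1.48 CPM with raloxifene and 33.0 ± 5.64 CPM with vehicle, a log2 fold change of 0.46 in replicates 1 and 2 and 0.05 in replicates 3 and 4. The most abundant peak near HSPA5, the main chaperone of the endoplasmic reticulum, averaged 60.6 ± 6.37 CPM with raloxifene and 52.9 ± 5.74 CPM with vehicle (SD, n = 4 each; 0.20, SE 0.0938, edgeR adjusted p = 1). That peak lies 34.4 kb from HSPA5 and 0.057 kb from a start of RABEPK.

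**Figure D4:**
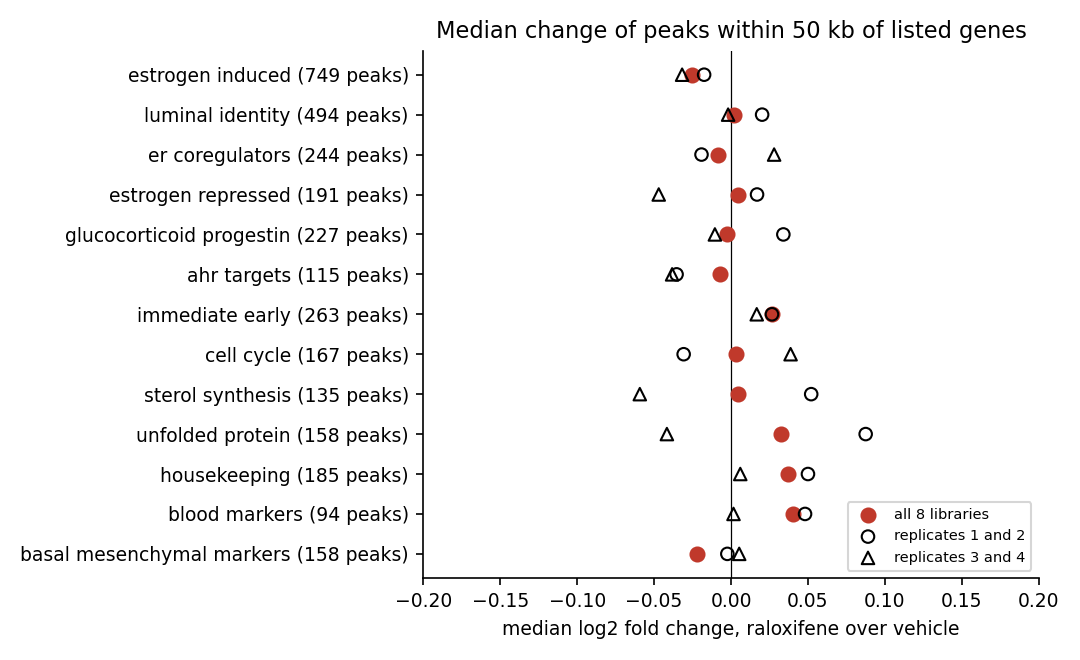
Median log2 fold change of raloxifene over vehicle (horizontal axis) of the peaks within 50 kb of the genes of each of 13 lists, for all 8 libraries (filled) and within replicates 1 and 2 or 3 and 4 (open circles and triangles). Every median over all 8 libraries lies between -0.0257 and 0.0405.

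Replicates 1 and 2 differed from replicates 3 and 4 in both groups, so the effect of raloxifene was also taken within each set. Over the mean of raloxifene and vehicle, 176 peaks (0.112%) were higher and 414 (0.264%) lower in replicates 3 and 4 than in replicates 1 and 2 (edgeR, adjusted p under 0.05). In a principal component analysis of the 8 libraries the components carried 17.7%, 17.5% and 15.3% of the variance in falling order. The second had all libraries of replicates 1 and 2 on one side of 0 and all of replicates 3 and 4 on the other, and none of these 3 parted raloxifene from vehicle. The labels name no batch.

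Within replicates 1 and 2, raloxifene changed 0 peaks (7999 at an unadjusted p under 0.05, 5.1% of those tested, smallest edgeR adjusted p = 0.656). Within replicates 3 and 4 it also changed 0 (6789 or 4.33%, smallest edgeR adjusted p = 0.607). The effect differed between the sets at 0 peaks (7160 or 4.57%, smallest edgeR adjusted p = 0.528). The estimates of the sets were nearly unrelated across peaks. Over the 78372 peaks above the median abundance, Pearson's r between the log2 fold changes of the sets was 0.003 and Spearman's rho 0.008, as a description over peaks that are not independent replicates. Estradiol against starved vehicle, split the same way, gave 0.324 and 0.129 over the same peaks. Of 3545 such peaks with an unadjusted p under 0.05 for raloxifene in replicates 1 and 2, 50.8% had the same sign in replicates 3 and 4, and for estradiol it was 71.7% of 4920.

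Above the median abundance, 3 peaks were taken by the smallest p of the difference between the sets. A peak in the interval 104388150 to 104388422 of chromosome 1, 630 kb from AMY1C, had 5.69, 7.19, 2.09 and 1.64 CPM with raloxifene, against 3.35, 4.42, 5.25 and 5.55 CPM with vehicle. Raloxifene was the higher group in replicates 1 and 2 and the lower in replicates 3 and 4 (0.74 and -1.50, edgeR adjusted p of the difference 0.528). A peak inside SMAD3, which encodes a signal transducer of TGF-beta (chromosome 15, 67134185 to 67134822), had 2.17, 1.55, 4.42 and 5.73 CPM with raloxifene, against 3.14, 3.9, 0.72 and 2.48 CPM with vehicle. Raloxifene was the lower group in replicates 1 and 2 and the higher group in replicates 3 and 4, with log2 fold changes of -0.89 and 1.78 (edgeR adjusted p of the difference 0.528). A peak inside ARFIP1 (chromosome 4, 152822441 to 152822649) moved as the first did, with 12, 10.5, 5.93 and 4.23 CPM with raloxifene against 6.81, 7.67, 8.13 and 10.7 CPM with vehicle (0.65 and -0.83, adjusted p of the difference 0.962). Pooled over sets, the log2 fold changes were -0.09 near AMY1C, 0.42 in SMAD3 and 0.04 in ARFIP1.

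**Figure D5:**
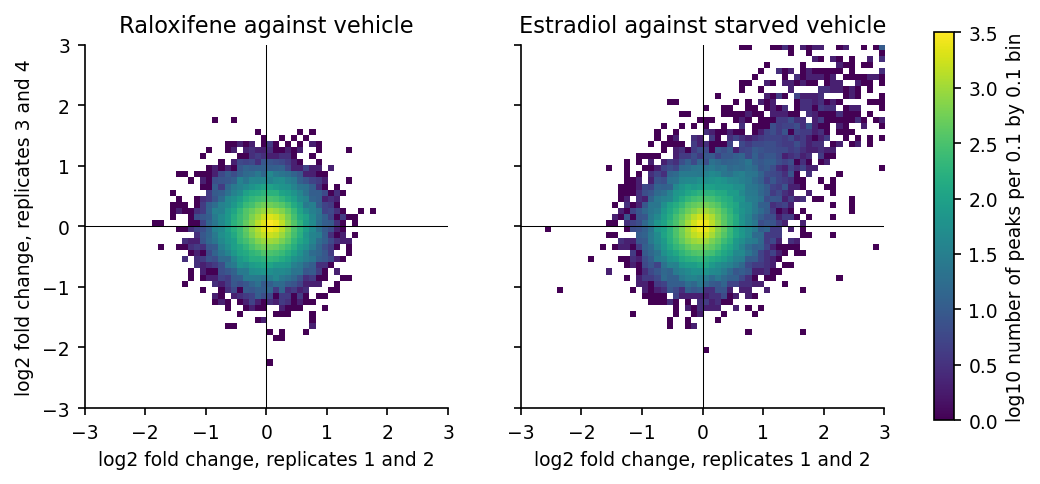
Log2 fold change in replicates 1 and 2 (horizontal axis) and in replicates 3 and 4 (vertical axis) for the 78372 peaks above the median abundance, with colour for the log10 number of peaks in each bin and values beyond 3 drawn at the edge. Raloxifene against vehicle (left) gives a round cloud with r of 0.003, and estradiol against starved vehicle (right) has an arm of peaks raised in both sets, with r of 0.324.

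The size of change that could be seen depended on how many counts a peak held. The 95% interval lay within 2-fold either way for 66.9% of tested peaks, and peaks were sorted by abundance into 4 bins of like size. It did so for 99.7% of the top bin (median 13.6 CPM) and for 15.6% of the bottom bin (median 1.00 CPM). Within 1.5-fold it lay for 91.0% of the top bin. The median SE was 0.148 in the top bin and 0.475 in the bottom bin. A change of 2-fold in an abundant peak was thus outside the interval almost everywhere, while in the bottom bin it was mostly not detectable at this depth.

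By position, 17572 tested peaks within 1 kb of a listed gene start had a median log2 fold change of 0.05, 67041 other peaks inside genes had -0.01 and 72132 outside genes had -0.01. Peaks at starts were also the more abundant, with a median of 12.9 CPM, and the median over the top abundance bin was 0.03. The part of this that belongs to abundance was not tested. Peaks at starts held 32.6%, 32.0%, 32.4% and 33.6% of counts in raloxifene replicates 1 to 4, against 31.8%, 30.8%, 32.7% and 32.3% in vehicle replicates 1 to 4. The groups overlapped, and the difference of 0.737 percentage points (0.987 in replicates 1 and 2, 0.487 in replicates 3 and 4) did not pass a two-sided exact permutation test (p = 0.229, the smallest possible being 0.0286). Without both vehicle libraries of conflicting label the difference was 1.31 points, with no overlap (exact permutation p = 0.0667, the smallest possible there).

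Raloxifene was set directly against the other antagonists at the same dose and time, 2 pairs in all, with p adjusted over all tested peaks of each pair. Tamoxifen, a triphenylethylene and also a selective modulator, differed from raloxifene at 0 peaks (6147 at an unadjusted p under 0.05, 3.92% of those tested). The smallest p was again at the TGIF2 peak, where tamoxifen replicates 1 to 4 had 11.4, 10.7, 9.82 and 8.84 CPM. All raloxifene libraries, given above, lay higher than these, and the log2 fold change of raloxifene over tamoxifen was 0.80 (SE 0.152, edgeR adjusted p = 0.198). With the replicate number as a block this peak passed (0.78, edgeR adjusted p = 0.04). Against fulvestrant at 14.2, 11.5, 6.96 and 14.1 CPM, the log2 fold change at the same peak was 0.60 (SE 0.157, edgeR adjusted p = 0.964).

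Fulvestrant is a steroidal antagonist with a long side chain that leads to loss of the receptor. It differed from raloxifene at 1 peak, higher with raloxifene (0.000638%, with 8093 peaks or 5.16% at an unadjusted p under 0.05). This peak lies inside ZMIZ1, which encodes a coregulator of nuclear receptors (chromosome 10, 79128630 to 79128949). It had 58.0, 59.1, 55.4 and 60.1 CPM with raloxifene, 41.8, 42.8, 29.9 and 14.1 CPM with fulvestrant and 52.2, 45.2, 49.5 and 53.7 CPM with vehicle. The fulvestrant libraries were all below the raloxifene and the vehicle libraries, and the lowest was replicate 4, a shallow library of 434598 counts. Its TMM factor was 1.558, and its CPM was also low at other abundant peaks. Near HMGCS1 it had 50.3 CPM, against 103 to 108 CPM in fulvestrant replicates 1 to 3, while at the TGIF2 peak its 14.1 CPM was not low. How much of its low value at ZMIZ1 belongs to scaling was not tested. The log2 fold change of raloxifene over fulvestrant was 0.61 (SE 0.109, edgeR adjusted p = 0.0411), and without fulvestrant replicate 4 it was 0.57 (0.0114). The call was lost without fulvestrant replicate 1 or 3, any raloxifene or tamoxifen library, or vehicle replicate 2, 3 or 4. Estradiol had raised this peak by 2.77 on the log2 scale in starved cells.

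A peak inside CASTOR2, which encodes a relative of an arginine sensor of mTORC1 signalling (chromosome 7, 75000932 to 75001228), had 11.3, 12.5, 10.0 and 9.01 CPM with raloxifene, against 6.58, 4.32, 2.75 and 1.57 CPM with fulvestrant. The groups did not overlap, although the lowest fulvestrant value came from the shallow replicate 4, where so low a value rests on very few counts. The log2 fold change was 1.15 (SE 0.215, edgeR adjusted p = 0.063). With the replicate number as a block, 6 peaks were higher with raloxifene than with fulvestrant, among them those of CASTOR2 and ZMIZ1 and one inside GREB1 (chromosome 2, 11532540 to 11532845; 0.83, edgeR adjusted p = 0.0162), the last chosen after its values were seen.

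The comparisons of the antagonists with vehicle share the vehicle libraries, so their values stand only side by side. Over the 1274 estradiol-raised peaks the median log2 fold change against vehicle was 0.01 for raloxifene, -0.07 for tamoxifen and -0.16 for fulvestrant, with 47.3%, 65.7% and 77.2% of peaks below 0 in the same order. These peaks held 1.53% to 1.65% of counts with raloxifene, 1.42% to 1.64% with tamoxifen, 1.04% to 1.56% with fulvestrant and 1.56% to 1.64% with vehicle. In tamoxifen and fulvestrant libraries the low values were those of replicates 3 and 4, while raloxifene libraries of those replicates stayed close to vehicle. The lowest, 1.04%, was that of the shallow fulvestrant replicate 4. At the peak near MINDY4B the log2 fold changes against vehicle were 1.34 for raloxifene, 0.96 for tamoxifen and 0.76 for fulvestrant (edgeR adjusted p = 0.289, 1 and 1).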

How the data were processed

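ATAC-seq was made from T47D cells, and the labels' protocols give the treatments. Per the submitters' processing notes, reads were handled with cutadapt 1.8.1, Bowtie2 2.4.4 and SAMtools 1.9 against build hg38. How peaks were called and counted, and whether duplicates were removed or Tn5 offsets applied, is not given in the sources used here. Values in the deposited table are raw counts per peak, without normalization, in a peak set common to all 24 libraries (200 to 958 bp wide). Whether starts count from 0 or 1 is not stated.

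edgeR 4.0.16 in R 4.3.3 fitted all 24 libraries by 6 group means, TMM scaling, filterByExpr (minimum count 10, minimum total 15) and the two-sided quasi-likelihood test (glmQLFit with legacy=FALSE and robust=TRUE), with Benjamini-Hochberg adjustment across every tested peak. The SE is the log2 fold change over the root of F. A fit with a mean for each group and set of replicates, gave the within-set values and their difference. The peak counts were also put through DESeq2 1.42.0. CPM uses TMM-scaled totals, and log CPM a prior count of 2. Intervals cover the spread in the fit, and floors for counts of 0 were not needed.

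Gene intervals were those of 20052 protein-coding RefSeq genes (GRCh38.p14), and distances run from a peak's midpoint to the gene's edge. Gene starts came from RefSeq start windows on the same build, which are incomplete. All 168 entries of the 13 lists matched. A peak is named by its nearest gene, and a list's peaks by the list gene. Where fewer than 5 peaks were called in a direction, the 10 peaks above the median abundance with the smallest p in that direction were named. For estrogen-induced and luminal genes the peak with the smallest p for estradiol was taken, and for other lists the most abundant. In comparisons of antagonists and of sets, up to 5 called peaks were eligible, and the peaks of smallest p that were not called are given as such. Some peaks that these rules name are counted but not reported here. Peaks, lists and rules were chosen with earlier results of these data known. The pipeline was tested on simulated data. Alternatives were RLE factors, total counts, loess offsets (span 0.3), no filter, keeping peaks above the median abundance, fitting only 2 groups, a replicate block, the set as a term, the older edgeR dispersion, DESeq2 and leaving out libraries.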

Additional observations from a re-analysis of the deposited data

Results flagged for a closer look

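In 6 of the 158 groups of 4 libraries examined, the gap of 1 library to the nearest other, as a share of the group's range, passed Dixon's critical value at the 95% level, which by its definition about 1 in 20 groups of normal values pass. Vehicle replicate 1 was the high one near WDR45B (24.1 CPM, the others 17.4 to 18.1), inside PDSS2 (9.62 CPM, the others 7.28 to 7.44) and inside MCEMP1 (9.41 CPM, the others 7.8 to 8.03). It was also high at a peak 17.8 kb from CDC6 and inside another gene (96.9 CPM, the others 86.0 to 87.1). Vehicle replicate 3 was high near JUND (32.9 CPM, the others 28.6 to 29.2). Raloxifene replicate 2 was low at a peak 46 kb from KRT14 (91.1 CPM, the others 102 to 104).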

How the results depend on the processing

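The count of peaks higher with raloxifene than vehicle was 1 with RLE factors, loess offsets, the median filter and without the 2 shallow libraries. It was 0 with total counts, no low-count filter, DESeq2, the older edgeR dispersion or without both vehicle libraries of conflicting label, and 0 to 1 when leaving out each library. It was 2 (the peaks of TGIF2 and MINDY4B) with only the raloxifene and vehicle libraries, with the replicate block and with the replicate set as a term. The count lower with raloxifene was 0 in all 20 settings. Against tamoxifen, the count higher with raloxifene was 1 with the replicate block and with the set as a term, and otherwise 0. Against fulvestrant it was 6 with the replicate block, 7 with the set as a term, 0 with no low-count filter or with DESeq2, and 0 to 2 when leaving out each library. Leaving out tamoxifen and fulvestrant libraries was chosen after seeing the data. The cause of these changes was not tested. Deviations of same-numbered raloxifene and vehicle libraries from their group means correlated weakly, at 0.0302 to 0.0995, yet 7 of 8 correlated best with the library of their own number. The main fit has no term for this. With the replicate number as a block the edgeR adjusted p at the TGIF2 peak was 0.00324, and with the replicate set as a term it was 0.00203. Without both vehicle libraries of conflicting label, log2 fold changes of raloxifene over vehicle were 0.80 at TGIF2, 1.34 at MINDY4B, 0.70 at PPP2R2C, 0.43 at WDR45B, -0.64 at TRPC6, -0.37 at SC5D, -0.93 at SLC2A1, -0.21 at GREB1, 0.09 at PGR and 0.24 at NCOR1 (edgeR adjusted p 0.995 each). The start share without them, given above, was computed after seeing the data. The median of the estradiol-raised peaks ran from -0.024 to 0.0355 over its alternatives. Depth limits the least abundant peaks most.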
